A study of Bos taurus with 15 samples.

Results

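In bovine fetal fibroblasts (BFF cells), the mean levels of 60 genes lay on opposite sides of the control with ectopic ARGFX and with ectopic LEUTX, past the limits below. Genes were selected on their mean levels: a gene entered the set when its mean in the control samples was at least 5 CPM (estimated counts divided by the library's total and multiplied by 1000000) and its mean was at least 1.5 times the control with one homeobox gene and at most 0.667 times the control with the other. Of 21665 genes measured, 10258 reached the control minimum, and the 60 oppositely moved genes were 0.585% of these. In 38 of the 60 the mean was high with wild type (WT) ARGFX and low with LEUTX, hereafter the ARGFX-high genes, and in 22 it was low with WT ARGFX and high with LEUTX, hereafter the LEUTX-high genes. The rule left out 2 collagen genes, COL15A1 and COL6A3. Because the ratios of WT ARGFX and of LEUTX to control chose the genes, those ratios are given below as descriptions and without a test.

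ARGFX and LEUTX are ETCHbox genes, a fast-evolving branch of the PRD class of homeobox genes found in placental mammals, and they encode transcription factors that are normally made in the embryo before implantation. Skin fibroblasts do not normally make either protein, so forcing their expression there shows what each can change in a foreign cell. Fibroblasts build the connective tissue matrix: they secrete fibrillar collagens and the proteins that bind them, remodel that matrix with proteases, and divide in culture.

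The 15 samples were RNA-seq libraries of 1 primary fibroblast culture, grown from the torso skin of a single 6-month fetus and used at passage 4. Cells were electroporated with pSF-CMV-Puro-COOH plasmid, in which the CMV promoter drives the insert, and were harvested at 72 hours after puromycin was added at 24 hours. The control group (n = 4) received a plasmid without a homeobox gene, the WT ARGFX group (n = 4) and the LEUTX group (n = 4) the bovine coding sequences with a C-terminal 3xFLAG tag, and the mutant ARGFX group (n = 3) an ARGFX allele that lacks 13 bases before the homeodomain, which shifts the reading frame, with linker and tag put in place of the early stop codon, so that this insert holds no homeobox or later coding sequence. Another mutant ARGFX sample, which the study left out as an outlier because it clustered with the WT ARGFX samples, was not analysed here. The mutant results below therefore cover only the samples that the study kept. The labels call the samples of a group biological replicates of this single culture, so the tests below measure the spread between transfections of cells from 1 fetus. Being bulk RNA, the libraries cannot tell a change in the RNA of each cell from a change in the share of cells that took up the plasmid or survived.

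The deletion defines the mutant allele, and the sequences of both inserts around it read as follows, with the 13 deleted bases in capitals. The mutant insert is also cut short downstream, as described above.
WT ARGFX: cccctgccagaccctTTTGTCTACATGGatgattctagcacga
mutant ARGFX: cccctgccagaccctatgattctagcacga

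Libraries held between 25947911 and 41554242 estimated counts. The introduced genes were where the labels put them. ARGFX stood at 3424 ± 720 CPM with WT ARGFX (SD, n = 4) and at 5462 ± 1592 CPM with mutant ARGFX (SD, n = 3), against 0, 0, 0 and 1 estimated counts in the controls. The LEUTX group held 1480 ± 203 CPM of LEUTX (SD, n = 4). Of 10 fibroblast markers, the 3 that could be found by symbol were all abundant, with control means of 12430 CPM for COL1A1, 12290 CPM for COL1A2 and 2859 CPM for COL3A1. Markers of other skin cell types were not analysed here, because no symbol in the tables used points to them.

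The opposite sets can be given as shares of the genes past the limit with each homeobox gene. The 38 ARGFX-high genes were 10.2% of the 374 genes at or above 1.5 times the control with WT ARGFX and 2.12% of the 1793 genes at or below 0.667 times with LEUTX. The 22 LEUTX-high genes were 2.54% of the 865 genes low with WT ARGFX and 2.58% of the 853 genes high with LEUTX. All of these counts are among the 10258 genes with a control mean of at least 5 CPM. Each share is smaller than the matching share over all 10258 genes. Of those, 1793 were low and 853 high with LEUTX, and 374 were high and 865 low with WT ARGFX. Both comparisons use the same 4 control samples, and the shares carry no test.

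**Figure D1:**
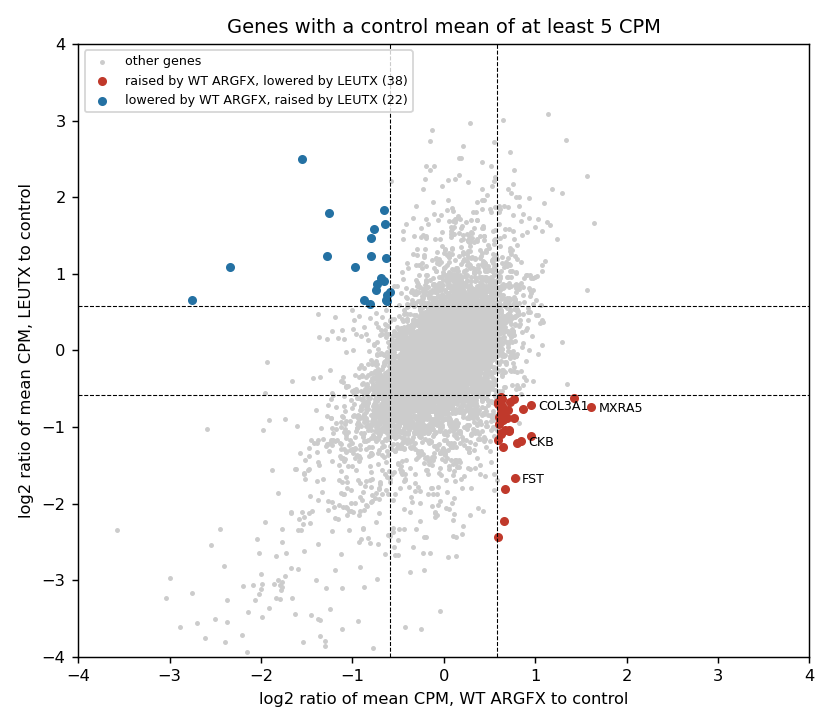
Each point is a gene with a control mean of at least 5 CPM, placed by the log2 ratio of its WT ARGFX mean to the control mean (horizontal) and of its LEUTX mean to the control mean (vertical). Dashed lines mark 1.5 and 0.667 times the control, the 38 ARGFX-high genes are red, the 22 LEUTX-high genes are blue, and 69 genes lie beyond the axes. The ARGFX-high genes sit close to the WT ARGFX line and spread downward, whereas the LEUTX-high genes spread along both axes.

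One library stood apart among the ARGFX-high genes. The WT ARGFX columns include 2 that carry the same header with the same replicate number, so neither could be tied to a single sample. They are called here unnumbered sample a and unnumbered sample b. Unnumbered sample b lay above the control mean in 27 of the 38 ARGFX-high genes, whereas the other 3 WT ARGFX samples lay above it in all 38. Its median log2 ratio to the control mean over these genes was 0.37, against 0.67, 0.82 and 0.83 in the other WT ARGFX samples. It was the lowest WT ARGFX sample in 25 of the 38 genes and fell inside the control range in 14. It also had the lowest trimmed-mean scaling factor of the 15 libraries (0.925) and the lowest ARGFX level of its group (2866 CPM), and the part of these in the result was not tested. In the same genes Control 2 was the lowest control in 23, LEUTX 1 the highest LEUTX sample in 23 and LEUTX 4 the lowest in 23. Mutant ARGFX 2 was the lowest mutant sample in 27 and Mutant ARGFX 3 the highest in 24, with median log2 ratios of 0.19 and 0.56, against 0.39 in Mutant ARGFX 1. Without unnumbered sample b the rule found 55 ARGFX-high genes and without unnumbered sample a it found 25. Without Control 2 it found 29, of which 19 were among the 38, and without Control 3 it found 44, of which 26 were, so both the size and the make-up of this set rest on single WT ARGFX and control samples. The 22 LEUTX-high genes were counted as 18 to 26 when any 1 of the 12 samples used by the rule was left out.

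The ARGFX-high genes are described first, by the ratios on which the rule chose them. Their mean with WT ARGFX was 1.504 to 3.07 times the control, with a median of 1.57, and just 2 exceeded 2 times. Their mean with LEUTX was 0.185 to 0.654 times the control, with a median of 0.546, and 14 were below 0.5. The LEUTX step was the larger in 30 of the 38 on the log2 scale, a count for which no share over all genes is given. All WT ARGFX samples lay above all control samples in 21 of the 38, where 10.2% of all genes with a control mean of at least 5 CPM did so, and all LEUTX samples lay below all controls in 24, where 31.2% of those genes did. Both held in 17. These counts follow from the rule and are read no further. Control means ran from 5.30 to 2859 CPM with a median of 21.7, and 6 were under 10 CPM. The coefficient of variation among the controls had a median of 18.6% in these genes, against 11.9% over all genes with a control mean of at least 5 CPM.

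Symbols were at hand only for genes in the part of the study's own list of genes raised by WT ARGFX that was used here, 219 of which, with symbols used here, are in the count table. That list was drawn up by the study on these same samples, so it is not independent evidence of a rise with WT ARGFX, and it can name ARGFX-high genes but no LEUTX-high gene. It gave symbols for 10 of the 38 ARGFX-high genes: 4 with products in or at the extracellular matrix (COL3A1, POSTN, MXRA5 and ADAM12), 2 that act in dividing cells (TOP2A and PIMREG), the secreted proteins FST and SOD3, and the enzymes CKB and GALNT15. The other ARGFX-high genes and all 22 LEUTX-high genes are given without a symbol here.

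**Figure D2:**
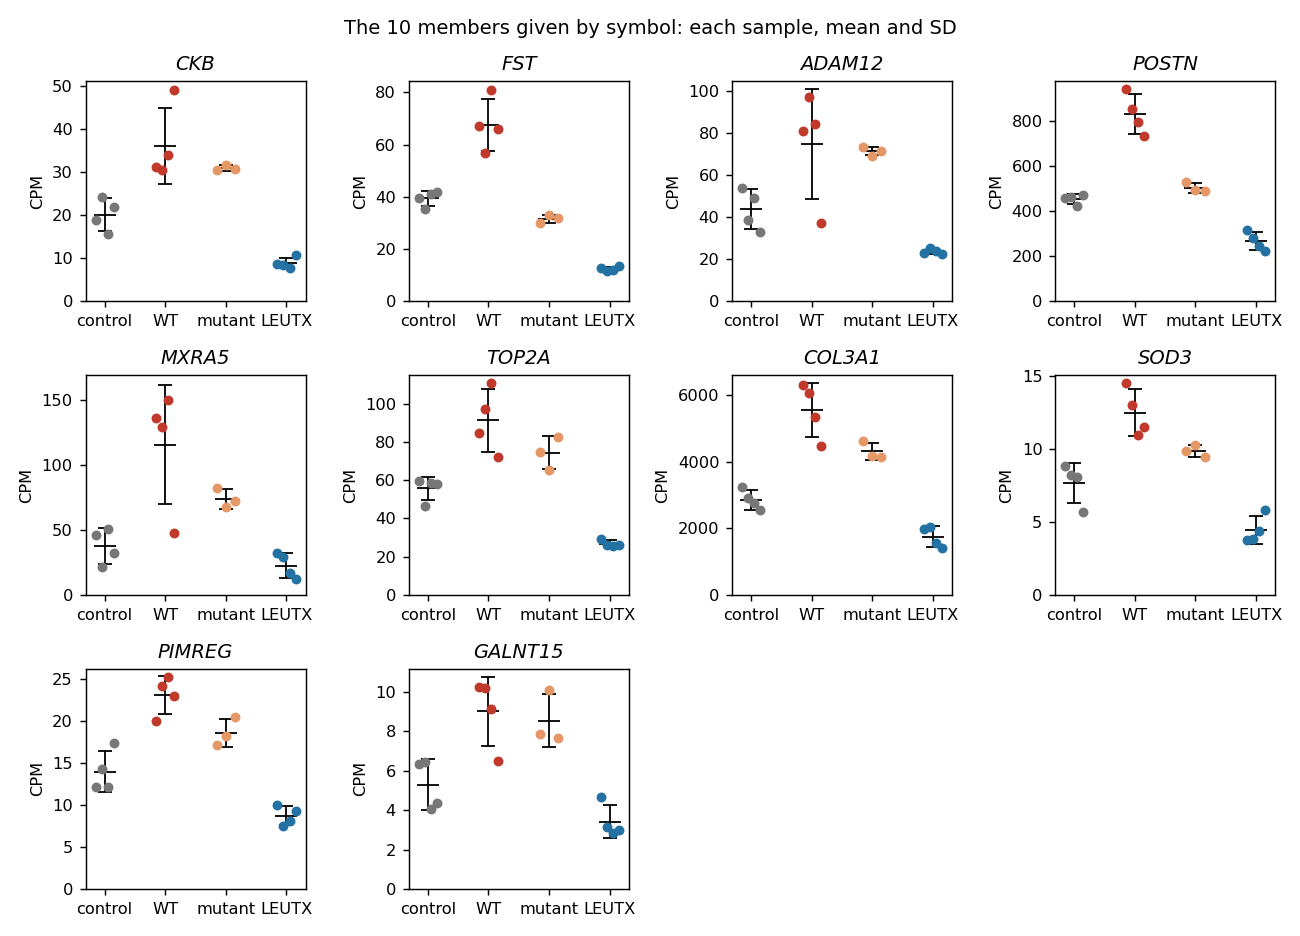
Each panel gives 1 of the 10 ARGFX-high genes with a symbol in CPM, with a point for each control, WT ARGFX, mutant ARGFX and LEUTX sample, the mean as a horizontal bar and the SD as an error bar. CKB, FST, POSTN, TOP2A, COL3A1 and PIMREG show WT ARGFX points wholly above and LEUTX points wholly below the controls, and 1 low WT ARGFX point stands out for ADAM12 and MXRA5.

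COL3A1 (ENSBTAG00000021466.6) encodes the chain of type III collagen, a fibrillar collagen of skin and other stretchable tissue. It had 3241, 2905, 2754 and 2536 CPM in the controls and 6281, 6058, 5338 and 4476 CPM in the WT ARGFX samples. The LEUTX samples had 1978, 2038, 1575 and 1411 CPM. All WT ARGFX samples were above all controls and all LEUTX samples below them, with mean ratios to control of 1.94 and 0.612. Its control mean of 2859 ± 296 CPM (SD, n = 4) was the highest of the 60 on a scale that takes no account of transcript length.

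POSTN (ENSBTAG00000012409.6) encodes periostin, a secreted protein that binds collagen and integrins. Its controls were close together, at 457, 464, 424 and 473 CPM. The WT ARGFX samples had 942, 854, 795 and 735 CPM, and the LEUTX samples 316, 282, 247 and 225 CPM. None of these groups overlapped, and the ratios to control were 1.83 and 0.589.

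MXRA5 (ENSBTAG00000022150.4), an adhesion proteoglycan associated with matrix remodelling, had the largest ratio with WT ARGFX of the set (3.07). Its controls ranged widely, at 46.6, 21.4, 51.2 and 32.3 CPM. The WT ARGFX samples had 137, 129, 150 and 47.9 CPM, and the LEUTX samples 32.1, 29.2, 17.1 and 12.6 CPM. Unnumbered sample b, at 47.9 CPM, lay within the control range, and the ratio without it was 3.67. LEUTX 1 and LEUTX 2 also lay within the control range, so the ratio of 0.601 with LEUTX comes from overlapping groups.

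ADAM12 (ENSBTAG00000012444.6), a membrane-anchored metalloprotease and disintegrin, had 53.8, 38.8, 49.2 and 33.1 CPM in the controls. It had 80.7, 96.8, 84.1 and 37.1 CPM with WT ARGFX, and 22.8, 25.1, 24.1 and 22.6 CPM with LEUTX. The LEUTX samples agreed closely and lay below every control. The ratio with WT ARGFX was 1.71, and 1.99 without unnumbered sample b, whose 37.1 CPM lay inside the control range.

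FST (ENSBTAG00000003329.3) encodes follistatin, a secreted protein that binds and neutralises activins. It had 39.4, 35.5, 41.1 and 41.9 CPM in the controls, and 67.2, 56.8, 80.9 and 65.9 CPM with WT ARGFX. With LEUTX it had 12.8, 11.7, 11.9 and 13.4 CPM, a mean of 12.4 ± 0.778 CPM (SD, n = 4). The groups were fully apart, with ratios of 1.72 and 0.315, and unnumbered sample b was not low for this gene.

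TOP2A (ENSBTAG00000019262.7), a DNA topoisomerase that untangles chromosomes in dividing cells, had 59.7, 46.6, 58.5 and 58.1 CPM in the controls. It had 84.8, 97.2, 111 and 72.0 CPM with WT ARGFX and 29.5, 26.3, 25.6 and 26.3 CPM with LEUTX. The groups did not overlap, and the ratios were 1.64 and 0.483. PIMREG (ENSBTAG00000002981.6), a regulator of the metaphase to anaphase step of mitosis, was also without overlap, from a control mean of 14.0 ± 2.46 CPM to 23.1 ± 2.25 with WT ARGFX and 8.74 ± 1.11 with LEUTX (SD, n = 4 each).

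CKB (ENSBTAG00000035998.4), the brain-type creatine kinase, had 18.9, 24.3, 15.6 and 21.8 CPM in the controls, 31.1, 30.4, 33.9 and 49.1 CPM with WT ARGFX, and 8.74, 8.42, 7.83 and 10.7 CPM with LEUTX. Here unnumbered sample b was the highest of its group, and no groups overlapped. SOD3 (ENSBTAG00000013980.5), the extracellular superoxide dismutase, went from 7.69 ± 1.39 CPM in the controls to 12.5 ± 1.61 with WT ARGFX and 4.47 ± 0.946 with LEUTX (SD, n = 4 each). GALNT15 (ENSBTAG00000008240.6), a transferase of the Golgi that starts mucin-type O-glycans, had the lowest control mean of the set at 5.30 ± 1.27 CPM, with 9.02 ± 1.76 CPM under WT ARGFX and 3.42 ± 0.847 CPM under LEUTX (SD, n = 4 each). GALNT15 met the limits narrowly, with a ratio of 0.645 with LEUTX, and left the set with TMM scaling, with DESeq2 size factors and when any of 4 single samples was left out. For both SOD3 and GALNT15 the highest LEUTX sample reached into the control range.

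Among the ARGFX-high genes without a symbol, the smaller of the pair of log2 ratios was largest in ENSBTAG00000007860.6, whose means were 21.9 ± 7.97 CPM in the controls, 42.3 ± 15.4 with WT ARGFX and 10.1 ± 3.67 with LEUTX (SD, n = 4 each). Its WT ARGFX samples, at 46.4, 50.3, 52.9 and 19.5 CPM, had unnumbered sample b inside the control range, as in MXRA5. ENSBTAG00000002444.6 showed the widest spread of the genes named here, with 45.5, 10.7, 117.5 and 48.6 CPM in the controls alone and all groups overlapping. The lowest ratio with LEUTX, 0.185, was in a gene without a symbol with a control mean of 228 CPM and a LEUTX mean of 42.0 CPM.

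The LEUTX-high genes are described by the same measures. Their mean with WT ARGFX was 0.148 to 0.667 times the control, with a median of 0.594, and their mean with LEUTX was 1.52 to 5.67 times the control, with a median of 2.02. In 11 the LEUTX mean was more than 2 times the control, and in 5 the WT ARGFX mean was below 0.5 times. The LEUTX step was the larger in 17 of the 22 on the log2 scale, again without a share over all genes. All WT ARGFX samples lay below all controls in 22 of 22, where 20.1% of all genes with a control mean of at least 5 CPM did so, and all LEUTX samples lay above all controls in 21, where 16.4% did. As before, the rule used these values. Control means ran from 5.41 to 218 CPM with a median of 14.6, and 8 were under 10 CPM. The control coefficient of variation had a median of 12.1%, near that of all genes. In every WT ARGFX sample the median log2 ratio to the control mean was below zero, at -0.75, -0.75, -0.73 and -0.98, the last being unnumbered sample b, and in the LEUTX samples it was 0.95, 0.92, 1.08 and 1.02.

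ENSBTAG00000003045.6 had the highest ratio with LEUTX of the set. It had 4.39, 6.53, 6.57 and 6.13 CPM in the controls, 1.79, 2.19, 2.15 and 1.91 CPM with WT ARGFX, and 34.0, 31.8, 34.6 and 33.4 CPM with LEUTX. The groups were far apart, with ratios of 0.340 and 5.67. ENSBTAG00000018497.3 had 9.26, 7.92, 7.97 and 7.55 CPM in the controls, 4.53, 2.47, 3.72 and 2.94 CPM with WT ARGFX, and 30.7, 25.9, 32.9 and 24.0 CPM with LEUTX. It too was without overlap, with ratios of 0.418 and 3.47. The gene with the lowest ratio with WT ARGFX (0.148) went from a control mean of 6.17 CPM to 0.912 CPM, and to 9.74 CPM with LEUTX. The gene with the highest control mean of the set, 218 CPM, had 125.5 CPM with WT ARGFX and 602 CPM with LEUTX.

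**Figure D3:**
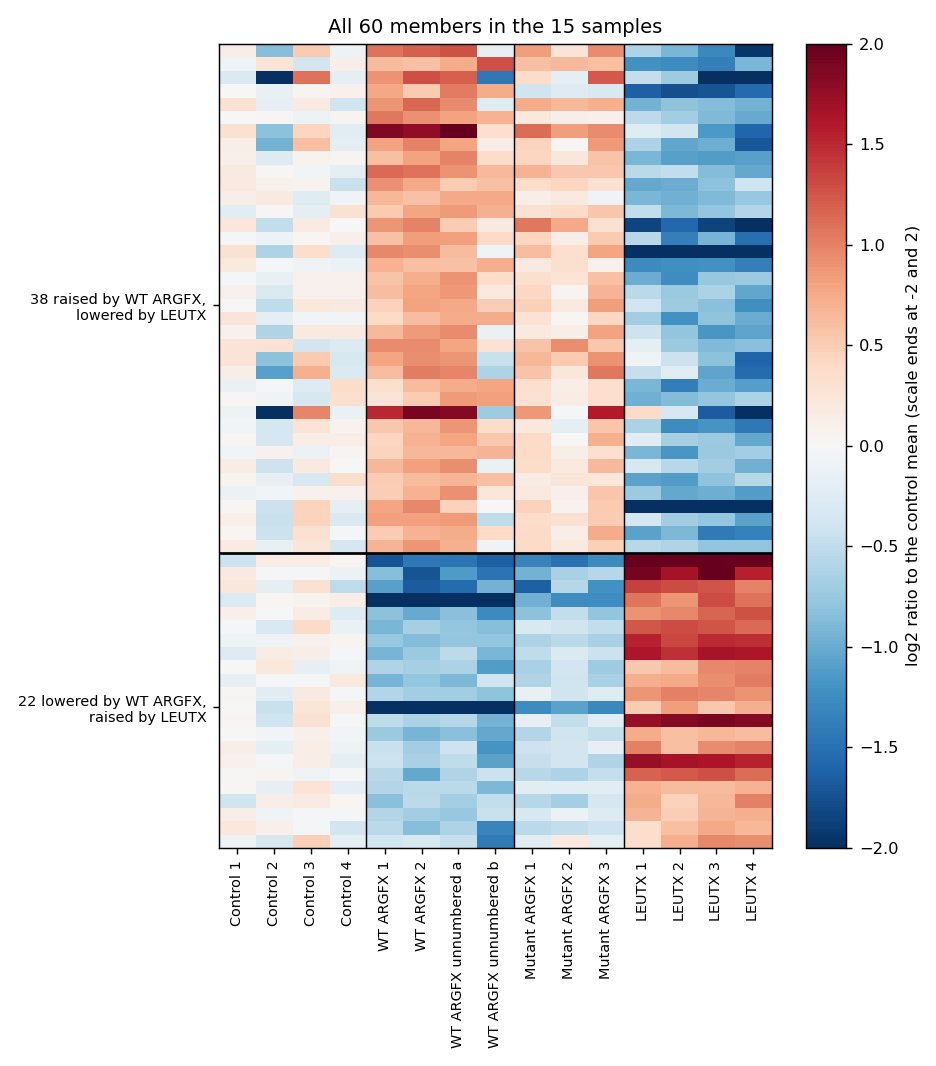
Rows are the 60 genes, with the 38 ARGFX-high genes above the thick line and the 22 LEUTX-high genes below, columns are the 15 samples, and colour is the log2 ratio of a sample's CPM to the control mean, with the scale ending at -2 and 2. Unnumbered sample b is pale or blue in part of the upper block, where the other WT ARGFX samples are red, and the mutant ARGFX columns are, by their median, paler than the other 3 WT ARGFX columns in the upper block and than all 4 in the lower block.

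The fold limits cut through a continuum. Among the ARGFX-high genes the members nearest the limits had ratios of 1.504 and 0.626 and of 1.510 and 0.445 with WT ARGFX and LEUTX, and the nearest genes outside had 1.4997 and 0.486 and 1.492 and 0.309. Among the LEUTX-high genes the nearest inside had 0.667 and 1.69 and 0.573 and 1.52, and the nearest outside had 0.670 and 4.63, at a control mean of 207 CPM, and 0.683 and 1.78.

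The mutant ARGFX samples took no part in choosing the genes and ask whether an ARGFX without its normal homeodomain moves them too. They were compared with the same 4 controls that the rule used, so any deviation of those controls is shared with the choice of the genes. The test was edgeR's quasi-likelihood test with Benjamini-Hochberg adjustment over the 14264 genes tested, which included all 60, and a gene was called at an adjusted p under 0.05 and a fold over 1.5. Of the 38 ARGFX-high genes, 5 were called up and 0 down, where 0.926% of the genes with a control mean of at least 5 CPM were called up (1.26% of all genes tested). At an unadjusted p under 0.05, 22 were up and 1 was down in edgeR, where 13.5% and 15.5% of those genes were. DESeq2 called 5 up and 0 down, where it called 1.08% and 2.89%. In edgeR, 7 passed the adjusted p upward without regard to fold, where 4.96% of those genes did. The median log2 fold change of the 38 was 0.43, from -0.30 to 1.00, beside a median of 0.00056 over the genes with a control mean of at least 5 CPM. All mutant ARGFX samples lay above all controls in 14 of the 38, where 10.3% of those genes did. The 5 calls depended on single libraries: 0 genes were called up without Control 4 or without Mutant ARGFX 1, 2 without Control 3, Mutant ARGFX 2 or Mutant ARGFX 3, and 3 without Control 2, WT ARGFX 1, unnumbered sample a, LEUTX 2 or LEUTX 3.

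Of the symbols, COL3A1, ADAM12, CKB and GALNT15 were called up with mutant ARGFX. COL3A1 had 4612, 4173 and 4144 CPM in the mutant samples, a log2 fold change of 0.61 ± 0.15 (SE, adjusted p = 0.0151, edgeR's quasi-likelihood test). These samples lay above every control and, for 2 of the 3, below every WT ARGFX sample. ADAM12 had 73.3, 69.2 and 71.5 CPM, a log2 fold change of 0.73 ± 0.21 (SE, adjusted p = 0.0337, edgeR's quasi-likelihood test). CKB, at 30.6, 31.7 and 30.7 CPM, had 0.63 ± 0.19 (SE, adjusted p = 0.0493, edgeR's quasi-likelihood test), and GALNT15, at 7.86, 10.1 and 7.67 CPM, had 0.70 ± 0.21 (SE, adjusted p = 0.0474, edgeR's quasi-likelihood test). TOP2A, at 74.9, 65.5 and 82.6 CPM, passed the adjusted p but not the fold, with 0.43 ± 0.11 (SE, adjusted p = 0.0185, edgeR's quasi-likelihood test). Its mutant samples lay above every control.

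FST and POSTN did not pass the test with mutant ARGFX. FST had 30.0, 33.0 and 31.8 CPM, all below the lowest control, and a log2 fold change of -0.30 ± 0.11 (SE, adjusted p = 0.0845, edgeR's quasi-likelihood test). It was the single ARGFX-high gene of the 38 with mutant samples wholly below the controls. POSTN had 528, 493 and 489 CPM, above every control, and a log2 fold change of 0.16 ± 0.12 (SE, adjusted p = 0.415, edgeR's quasi-likelihood test). MXRA5 had the largest log2 fold change of the set, 1.00 ± 0.34, with 82.3, 67.7 and 72.6 CPM in the mutant samples and every one above the controls, and did not pass either (SE, adjusted p = 0.0714, edgeR's quasi-likelihood test).

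Of the 22 LEUTX-high genes, 6 were called down with mutant ARGFX and 0 up, where 2.72% of the genes with a control mean of at least 5 CPM were called down (2.57% of all genes tested). At an unadjusted p under 0.05, 18 were down and 0 up in edgeR, where 15.5% and 13.5% of those genes were. DESeq2 called 7 down and 0 up, where it called 2.89% and 1.08%. The median log2 fold change was -0.49, from -1.35 to -0.03, and 13 passed the adjusted p without regard to fold, where 7.48% of those genes did so in the same direction. All mutant samples lay below all controls in 16 of the 22, where 17.8% of all genes with a control mean of at least 5 CPM did so. Leaving out 1 sample gave 4 to 9 calls. ENSBTAG00000003045.6 had 2.34, 2.10 and 2.43 CPM in the mutant samples, below every control and near the WT ARGFX samples, with a log2 fold change of -1.35 ± 0.14 (SE, adjusted p = 1.8e-05, edgeR's quasi-likelihood test). ENSBTAG00000018497.3 had 4.26, 5.19 and 5.54 CPM and a log2 fold change of -0.69 ± 0.17 (SE, adjusted p = 0.0172, edgeR's quasi-likelihood test). The gene with the highest control mean of the set passed the adjusted p just short of the fold, with -0.58 ± 0.085 (SE, adjusted p = 0.000441, edgeR's quasi-likelihood test).

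The mean of the mutant ARGFX samples lay between the control mean and the WT ARGFX mean in 34 of the 38 ARGFX-high genes and in 22 of the 22 LEUTX-high genes. This is a count of means, with the controls shared and the WT ARGFX mean set by the rule, and carries no test. The introduced RNA had a higher mean level in the mutant samples, although the inserts differ in length. The mutant samples held 6242, 6514 and 3631 CPM of ARGFX and the WT ARGFX samples 4477, 3254, 3100 and 2866 CPM.

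**Figure D4:**
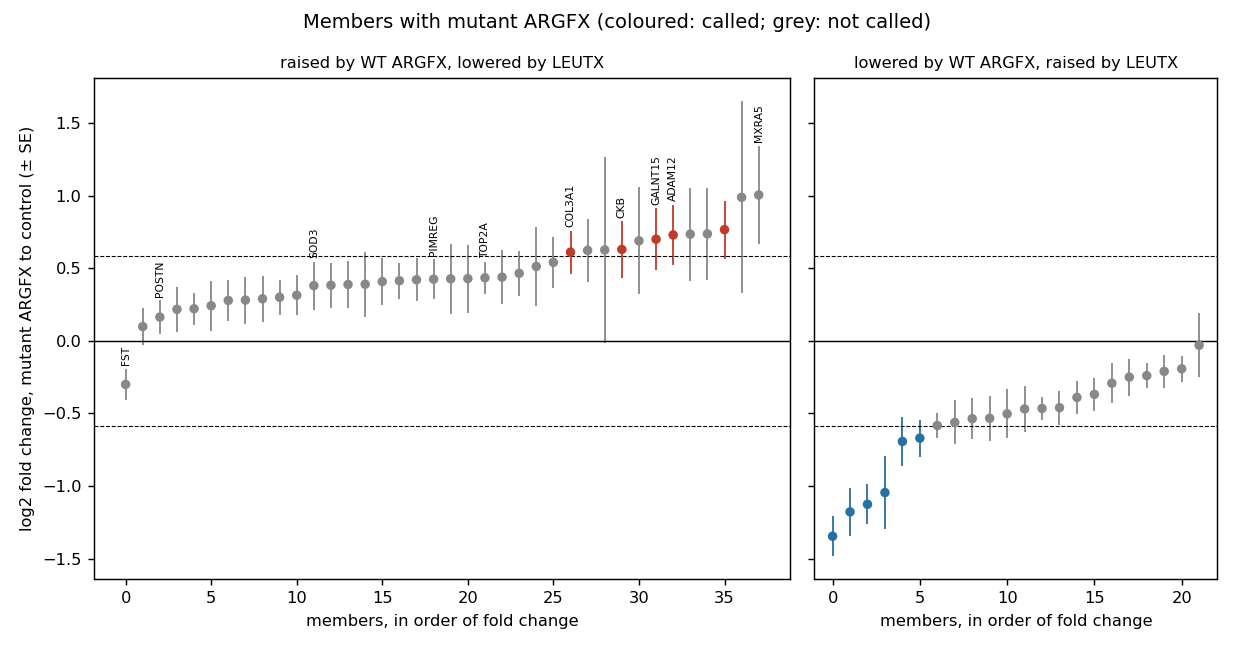
Points give the log2 fold change of mutant ARGFX against control for each of the 38 ARGFX-high genes (left) and 22 LEUTX-high genes (right), in order of size, with the SE as a bar, and dashed lines at a fold of 1.5. Coloured points were called, 5 up on the left and 6 down on the right, and FST is the lowest point on the left.

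The genes that share a function with the named ARGFX-high genes were read from lists of pathway genes, of which 70 of 309 could be found by symbol. Since each of these also comes from the study's list of genes raised by WT ARGFX, what could be asked of them is their response to LEUTX, measured against the same controls as that list. LEUTX against control was tested by edgeR's quasi-likelihood test as above, with 10.2% of the genes with a control mean of at least 5 CPM called up and 13.3% down, and 12.8% and 14.0% of all genes tested. The median log2 fold change over all genes tested was -0.03. Of the 209 genes with a symbol that were not oppositely moved, from which the other listed genes come, 117 (56.0%) were called up with LEUTX and 6 (2.87%) down, and the counts below are to be read against these shares. Calls down are given for completeness and say nothing about a list, because a gene high with WT ARGFX, low with LEUTX and above the control minimum had already been placed in the opposite set.

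Of 34 genes on the collagen and matrix list 15 were found, and 3 of these were the oppositely moved COL3A1, POSTN and MXRA5. Of the other 12, 6 were called up with LEUTX, near the share among the 209 genes, and 0 down, which the rule largely fixed, in edgeR's test and likewise in DESeq2, with 1 down at an unadjusted p under 0.05, and their median log2 fold change was 0.60. Those that rose were COL5A2 and COL11A1 (fibrillar collagen chains), FN1 (fibronectin), TGFBI (a collagen-binding protein), P3H2 (a collagen prolyl hydroxylase) and PXDN (a peroxidase that crosslinks collagen IV). COL11A1 went from 122 ± 20.5 CPM in the controls to 401 ± 106 CPM with LEUTX (SD over 4 samples each). The log2 fold change was 1.82 ± 0.18 (SE, adjusted p = 3.74e-07, edgeR's quasi-likelihood test). FN1 went from 2557 ± 823 to 6991 ± 2263 CPM (SD over 4 samples each). The log2 fold change was 1.56 ± 0.26 (SE, adjusted p = 1.04e-04, edgeR's quasi-likelihood test).

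Among the fibrillar collagens the LEUTX mean was 0.612 times the control for COL3A1, which the rule chose for a low value, 0.731 times for COL5A1, 1.17 times for COL1A1, 1.35 times for COL1A2, 1.51 times for COL5A2 and 3.28 times for COL11A1. COL5A1 did not pass (log2 fold change -0.35 ± 0.23 SE, adjusted p = 0.237, edgeR's quasi-likelihood test), nor did COL1A1 (0.32 ± 0.15 SE, adjusted p = 0.0930, edgeR's quasi-likelihood test). COL1A2 passed the adjusted p but not the fold (0.52 ± 0.14 SE, adjusted p = 0.00469, edgeR's quasi-likelihood test). FBN1, which encodes the microfibril protein fibrillin, was the nearest to joining COL3A1 among the 12, at 0.729 times the control with a log2 fold change of -0.36 ± 0.13 (SE, adjusted p = 0.0356, edgeR's quasi-likelihood test), under the fold limit.

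Among the contractile and cytoskeletal genes found by symbol, 0 were oppositely moved. The share was 5.68% among all genes with a symbol and a control mean of at least 5 CPM. With so few genes found, this count is read no further. All 13 that were found, of 21 listed, were called up with LEUTX, where 56.0% of the 209 genes with a symbol outside the opposite set were. Their median log2 fold change was 1.40. ACTA2, the smooth muscle actin of myofibroblasts, went from 699 ± 135 CPM in the controls to 3372 ± 316 CPM with LEUTX (SD over 4 samples each). The log2 fold change was 2.36 ± 0.19 (SE, adjusted p = 2.28e-08, edgeR's quasi-likelihood test). ACTG2, the enteric smooth muscle actin, had the largest, at 2.68 ± 0.16 (SE, adjusted p = 9.43e-10, edgeR's quasi-likelihood test). Reads of these near-identical actins can be split between paralogs by the counting, so their separate values are uncertain.

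Of 30 genes on the cell cycle list 11 were found, among them the oppositely moved TOP2A and PIMREG, which the rule chose as low with LEUTX. Of the other 9, 1 was called up with LEUTX, 1 down and 7 in neither direction, with a median log2 fold change of -0.19. Among the 209 genes with a symbol outside the opposite set, 56.0% were called up and 2.87% down. Few calls down among the 9 were largely fixed by the rule. CDKN2C, an inhibitor of the cyclin D kinases, rose with LEUTX, with 6.56 ± 1.70 CPM in the controls and 18.6 ± 2.27 CPM in the LEUTX samples (SD over 4 samples each). The log2 fold change was 1.59 ± 0.17 (SE, adjusted p = 7.49e-07, edgeR's quasi-likelihood test). CDKN3, a phosphatase that acts on cyclin-dependent kinases, was the one called down, at -0.60 ± 0.18 (SE, adjusted p = 0.0128, edgeR's quasi-likelihood test). IQGAP3, a scaffold protein of proliferating cells, passed the adjusted p but not the fold, at -0.40 ± 0.12 (SE, adjusted p = 0.0129, edgeR's quasi-likelihood test), as did ATAD2, a chromatin-binding ATPase, in the other direction, at 0.49 ± 0.16 (SE, adjusted p = 0.0187, edgeR's quasi-likelihood test). The control mean of CDKN3, 3.32 CPM, was under the minimum of the rule. The call on CDKN3 was lost in DESeq2 and when any 1 of Control 1, Control 4, unnumbered sample b, Mutant ARGFX 2, LEUTX 1, LEUTX 2 or LEUTX 4 was left out.

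Of the proteases and inhibitors, ADAM12 was the single oppositely moved gene among 5 found. MMP3, MMP12 and SERPINE2 were called up with LEUTX and MMP28 was not, and SERPINE2, an inhibitor of serine proteases, went from 402 ± 52.8 to 3413 ± 309 CPM (SD, n = 4 each). Beside FST, 3 genes of the TGF-beta, BMP, WNT and NOTCH list were found, of which 1, the Notch-modifying glycosyltransferase LFNG, was called up. No oppositely moved gene was found among 7 amino acid and one-carbon enzymes (5 called up with LEUTX), 8 developmental transcription factors (2 up), 3 genes of the cytokine list (the receptor IL1RL1 up, the cytokines IL34 and IL17D not called), 2 basement membrane genes, 1 integrin or 1 gene of the JAK/STAT list (1 up). JDP2, a transcription factor of the AP-1 family, passed the adjusted p in the lower direction but not the fold, with a log2 fold change of -0.41 ± 0.11 (SE, adjusted p = 0.0054, edgeR's quasi-likelihood test). The calls up in these short lists stand beside the 56.0% called up among the 209 genes with a symbol outside the opposite set, and are read no further. Over the whole of the 219 genes with a symbol, 176 had a control mean of at least 5 CPM, and the 10 oppositely moved genes were 5.68% of these.

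**Figure D5:**
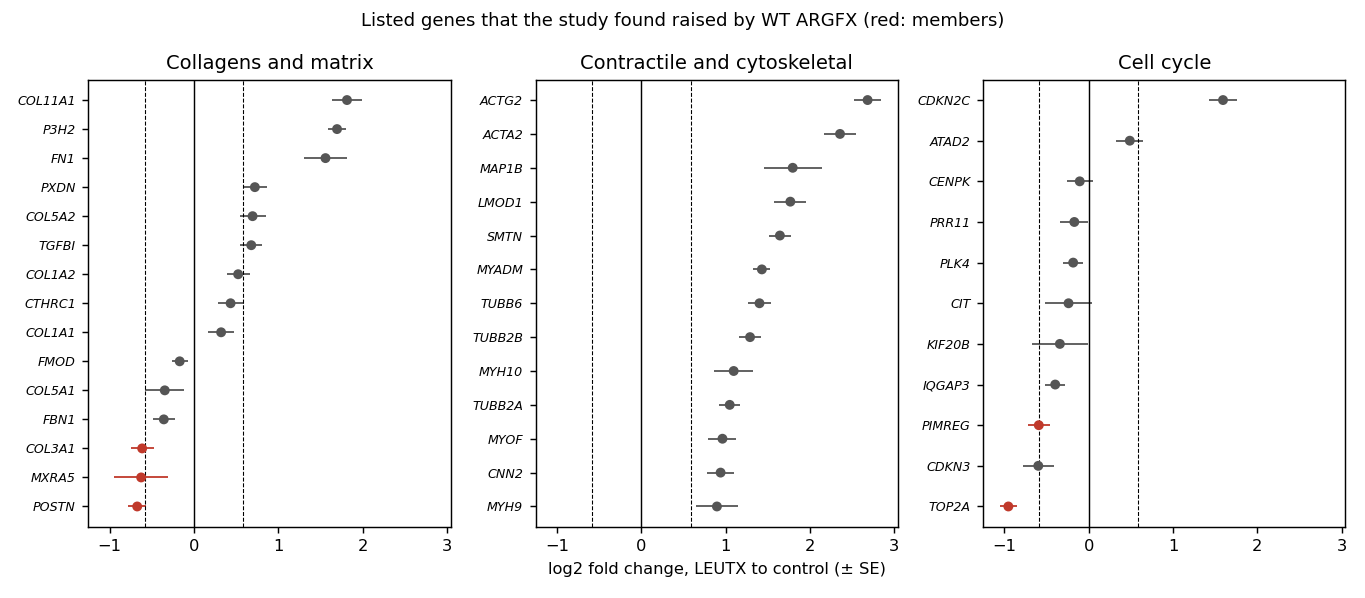
Points give the log2 fold change of LEUTX against control with its SE for the genes found by symbol on the collagen and matrix, contractile and cytoskeletal, and cell cycle lists, with dashed lines at a fold of 1.5 and the oppositely moved genes in red, which the rule placed low. The 13 contractile and cytoskeletal genes all lie above zero, while the matrix genes run from POSTN at the low end to COL11A1 at the high end.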

How the data were processed

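The deposited table holds expected counts per gene: the authors trimmed reads with Trimmomatic and estimated transcript abundances with kallisto 0.46.1, and the submitters' processing notes name the build ARS-UCD1.2. The deposited values were used as CPM of the column sum for the rule and rounded to whole numbers for tests, and 93.1% were exactly whole. edgeR 4.0.16 (R 4.3.3) fitted all 15 samples (TMM, filterByExpr, glmQLFit, glmQLFTest), with Benjamini-Hochberg adjustment over 14264 genes. DESeq2 1.42.0 was an alternative. The fit was tested on simulated data, with 200 of 14264 genes changed by a fold of 2 in the mutant ARGFX samples. It called 76.5% of the 200 in the right direction and made 7 false calls. Smaller changes were not simulated. Members and lists were chosen with earlier results of these data known. Named genes were the 12 largest by the smaller log2 ratio, the 5 highest in control, the 2 nearest the limit on either side, up to 5 called with mutant ARGFX and every member on a list, with at most 2 identifiers printed per direction where no symbol was at hand. One gene is not reported here by name or value, and most genes without a symbol enter only in counts and ranges. Symbols came from the study's list of genes raised by WT ARGFX, and no Ensembl identifier could be matched to the RefSeq table used here, so no coordinates, promoters or proteins are given. Alternatives covered scaling, the control minimum, the fold, medians, the filter, the tool, the replicate block and leaving out each sample.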

Additional observations from a re-analysis of the deposited data

Results flagged for a closer look

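In groups of 4 samples, the gap between an extreme sample and its nearest neighbour was set against the range of the group for the 14 genes given by name or identifier, in 42 groups in all. TOP2A stood out in Control 2, at 46.6 CPM against 58.1 to 59.7 CPM in the other controls. GALNT15 stood out in LEUTX 1, at 4.68 CPM against 2.86 to 3.16 CPM in the other LEUTX samples. Chance alone would single out about 1 in 20 groups, or 2.1 of 42, and 2 were found. Groups of 3 were not tested.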

How the results depend on the processing

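The 38 ARGFX-high genes became 58 with a control minimum of 1 CPM, 0 with a fold of 2 each way and 232 with a looser fold of 5 to 4, and 25 to 55 when 1 sample was left out, with 10 kept in every omission, among them CKB, FST, ADAM12, POSTN, TOP2A and COL3A1. Of the others with a symbol, GALNT15 dropped out in 4 omissions, MXRA5 in 2, and PIMREG and SOD3 in 1 each, and GALNT15 also dropped out with TMM scaling and, with PIMREG, with size factors. The 22 LEUTX-high genes became 43 with a control minimum of 1 CPM, 14 with one of 10 CPM, 4 with a fold of 2 and 85 with the looser fold, and 18 to 26 when 1 sample was left out, with 12 kept in every omission. TMM scaling gave 44 (32 shared with the 38) and 18 (17 shared with the 22), and moved the median log2 ratio of all genes with a control mean of at least 5 CPM by 0.06 with WT ARGFX, 0.02 with mutant ARGFX and 0.09 with LEUTX, and those of the 60 genes by 0.04 to 0.08, 0.009 to 0.04 and 0.08 to 0.13. With mutant ARGFX, the 5 ARGFX-high genes called up ranged from 0 to 7 when 1 sample was left out, and the 6 LEUTX-high genes called down from 4 to 9, or 13 with the adjusted p alone. Calls at an adjusted p under 0.05 and a fold over 1.5 in the opposite direction were 0 under every alternative run. The 1 cell cycle gene called down with LEUTX became 0 with DESeq2, with size factors, and among the 13 numbered samples with or without the replicate block, and ranged from 0 to 1 when 1 sample was left out. This alternative was chosen after seeing the data, as were those for the matrix and contractile lists, which gave 5 to 7 and 13 genes called up when 1 sample was left out. Same-numbered samples share only a number: over 16 pairs their deviations from the group means correlated with a mean r of 0.0105 (-0.298 to 0.375). The replicate block over the 13 numbered samples called 4 ARGFX-high genes up and 6 LEUTX-high genes down with mutant ARGFX, against 7 and 6 in these samples without it. For the genes given by name or identifier, 251 alternative values for mutant ARGFX kept their side of an adjusted p of 0.05, whatever the fold, 34 no longer passed, 9 newly passed and none changed sign. FST, which was lower, was among the 9, short of the fold. Causes were not tested. How low levels limit the calls was not tested.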
